A study of Mus musculus with 27 samples.

Results

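Keratins 7, 8, 18, 19, 20 and 23, grouped here as luminal, and keratins 14, 15 and 17, grouped as basal, were followed across 27 mouse prostate tumours. The 9 genes were chosen by symbol, with earlier results of these data known. Each was measured by a row with only that symbol, and they are 9 of the 22180 genes that could be named in this way. Each of the 27 tumours came from a different transgene-positive F2 male, bred from transgene-negative sires and transgene-positive dams on a background of C57BL/6-Tg(TRAMP)8247Ng/J crossed with PWK/PhJ. The labels place the tumours in 1 group, scored at 30 weeks or when an animal reached a humane endpoint. No tissue without the transgene was analysed here, so there is no contrast between conditions. In TRAMP mice the SV40 early region is driven by the probasin promoter, which is active in prostate epithelium under androgen, and PWK/PhJ is a wild-derived strain. Tumours are named by animal number, such as P425.

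Keratins are the intermediate filament proteins of epithelial cells, and a filament is built from pairs of 1 type I and 1 type II keratin. In the prostate, secretory luminal cells carry the pair of Krt8 (type II) and Krt18 (type I), while basal cells carry Krt5 and Krt14 under the transcription factor p63. Krt7 is the other simple-epithelium type II keratin among the 9, and Krt19, Krt20 and Krt23 are type I keratins of simple or glandular epithelia, with Krt20 best known from gut and urothelium. Krt17 and Krt15 are type I keratins of basal layers and hair follicles, and Krt17 is also induced in stressed or wounded epidermis. Krt5 shares its array row with another keratin and was not analysed here, so the usual partner of Krt14 has no value.

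Values are log2 expression levels as deposited, 1 array per tumour. The medians of the 27 arrays lay between 5.67 and 5.82, and the median of all rows was 5.75, so levels near or below that are close to background. Pairs of arrays correlated at 0.891 at the lowest, 0.953 at the median and 0.986 at the highest. Levels of different genes come from different probes and are not compared with each other. The prostate transcription factor Foxa1 ranged from 7.20 to 11.72 and stayed above the median of all rows in every tumour. By the rule for 2 modes given below, its lower mode held P471 at 7.20, P1276 at 7.87, P966 at 8.10 and P609 at 8.91. A gap of 0.79 log2 separated them from the other 23. P471, P1276 and P966 were also in the upper mode of Krt8, and P609 was not. P425, P219, P803, P1469 and P569 were in the upper modes of both Krt8 and Foxa1. In a bulk tumour sample, fewer cells of a type and less RNA per cell cannot be told apart, and this holds for every level below.

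Each of the 9 keratins fell into separate lower and upper levels across the tumours. A gene was said to have 2 modes where a mixture of 2 normal distributions beat 1 by more than 6 in BIC, the modes were more than 2 apart by Ashman's D and at least 3 tumours lay in the smaller mode. By this rule 9 of 9 keratins had 2 modes, against 7.90% of all 22180 genes, with between 3 and 9 tumours in the upper mode. The median SD over the 27 tumours was 1.60 for the 9 keratins and 0.303 for all genes. Because the 9 were chosen with earlier results of these data known, both comparisons describe these 9 genes and not keratins at large. The upper modes differed between keratins in which tumours they held. P1276 was in the upper mode of 8 keratins, P471 of 7, P966, P425, P219, P1469 and P569 of 6 each, and P803 of 5. P502 was in the upper mode of 2 keratins, P757, P217 and P268 of 1 each, and the other 15 tumours of none.

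**Figure D1:**
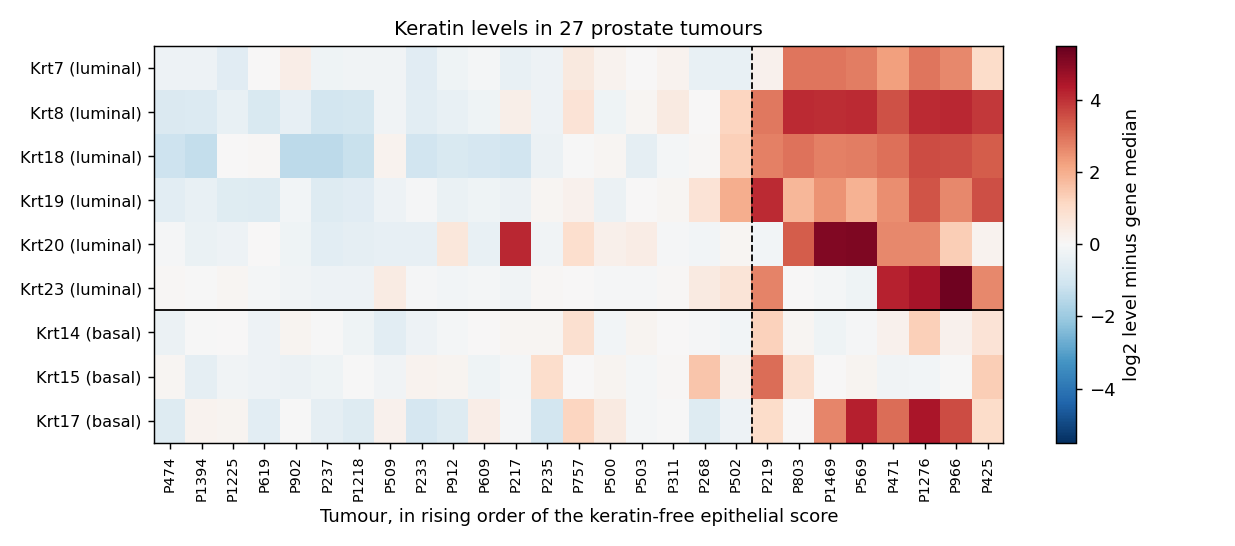
Log2 levels of the 9 keratins (rows) in the 27 tumours (columns), coloured as the difference from each keratin's median over the 27 tumours. Columns are ordered by the epithelial score that holds no keratin, and the dashed line separates the 19 tumours with a low score from the 8 with a high score; Krt8, Krt18 and Krt19 are high in all 8, while Krt20, Krt23, Krt17, Krt14 and Krt15 are each high in a different few.

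**Figure D2:**
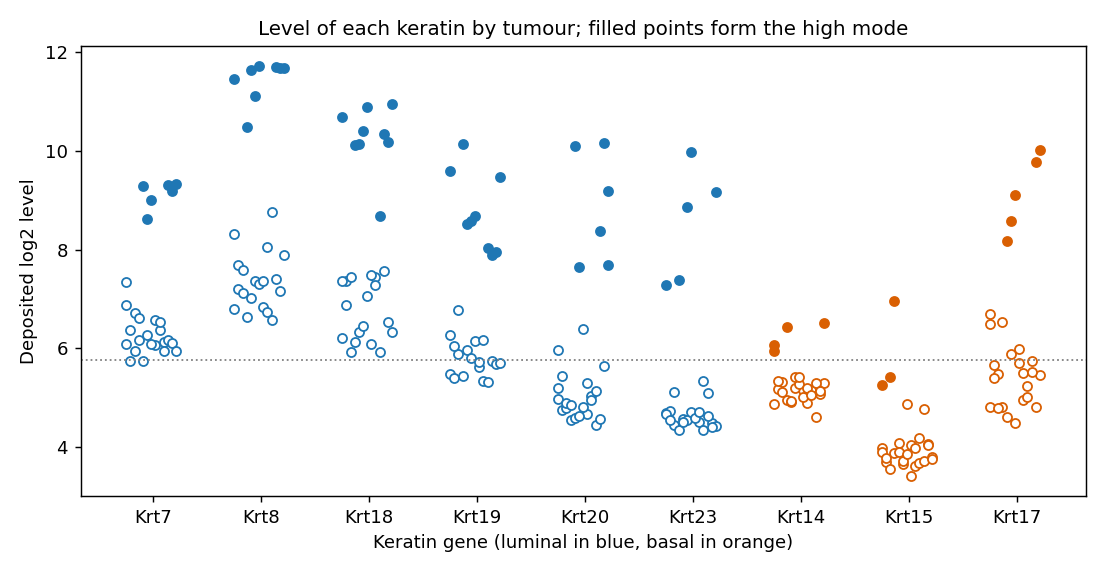
Log2 level of each keratin in each of the 27 tumours, 1 point per tumour, with the upper mode marked apart from the lower mode. The dotted line is the median of all rows on the arrays, 5.75; the upper mode holds 8 tumours for Krt8, 9 for Krt18 and Krt19, and 3 to 6 for the other keratins.

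Krt8, the type II member of the luminal pair, ranged from 6.57 in P237 through a median of 7.59 to 11.72 in P966, a 35.3-fold span. Its upper mode held 8 tumours between 10.48 and 11.72 and its lower mode 19 tumours between 6.57 and 8.76, with no tumour in the gap of 1.72 log2 between them. Krt18, its type I partner, ranged from 5.92 in P902 through a median of 7.37 to 10.95 in P1276, a 32.7-fold span. Its upper mode held the same 8 tumours, between 10.13 and 10.95, together with P502 at 8.68. The highest tumour of the lower mode had 7.56. P502 was also the highest of the lower mode for Krt8, so the partners differ only in the side of the line on which P502 falls. With arrays centred on their medians the upper mode of Krt18 held 8 tumours. A second row for Krt18 on the array averaged 4.49 ± 0.453 (SD, n = 27) and was not used, as the row with the higher mean was kept.

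Within the 8 tumours of the upper Krt8 mode the pair was the least variable of the 9 keratins, with an SD of 0.436 for Krt8 and 0.333 for Krt18. P219 had the lowest Krt8 of the 8, at 10.48, and P471 had the second lowest, at 11.11. The difference of Krt8 minus Krt18 within a tumour had an SD of 0.553 over all 27 tumours, against 1.97 for Krt8 and 1.79 for Krt18. Those SDs over 27 tumours include the gap between the modes. Over these 8 tumours the difference had an SD of 0.425, about that of Krt8 (0.436) and above that of Krt18 (0.333). Over the other 19 the difference had 0.550, against 0.587 for Krt8 and 0.737 for Krt18.

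The genes for Krt8 and Krt18 lie next to each other on chromosome 15, where all type II keratins and Krt18 are found. The RefSeq promoter windows (mouse build GRCm38.p6, 250 bases before to 50 bases after the start of the gene) of these partners and of Krt7, whose upper mode holds 6 of the 8 tumours with high Krt8, and Krt20, whose upper mode holds 5 of them and P217, are shown because they belong to the keratins that define the main patterns. Of the 9 keratins, 6 had a window in the table. The letters of the TATA box (TATAAA), the GC box (GGGCGG) and the AP-1 site (TGANTCA) were searched on both strands, and matches are in capitals. Krt8 lies at chr15:102004293-102004592 on the minus strand, Krt18 at chr15:102027966-102028265 on the plus strand, Krt7 at chr15:101412153-101412452 on the plus strand and Krt20 at chr11:99438104-99438403 on the minus strand.
Krt8: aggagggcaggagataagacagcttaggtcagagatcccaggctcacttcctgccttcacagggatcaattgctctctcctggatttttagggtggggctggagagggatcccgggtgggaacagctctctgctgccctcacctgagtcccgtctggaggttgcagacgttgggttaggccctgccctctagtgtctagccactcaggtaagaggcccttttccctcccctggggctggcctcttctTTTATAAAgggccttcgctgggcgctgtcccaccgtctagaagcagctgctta
Krt18: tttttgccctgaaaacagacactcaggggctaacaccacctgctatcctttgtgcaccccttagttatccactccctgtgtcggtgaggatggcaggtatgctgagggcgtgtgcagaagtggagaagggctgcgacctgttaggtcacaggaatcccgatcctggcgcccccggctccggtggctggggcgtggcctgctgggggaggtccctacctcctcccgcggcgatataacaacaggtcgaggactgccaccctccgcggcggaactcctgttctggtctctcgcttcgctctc
Krt7: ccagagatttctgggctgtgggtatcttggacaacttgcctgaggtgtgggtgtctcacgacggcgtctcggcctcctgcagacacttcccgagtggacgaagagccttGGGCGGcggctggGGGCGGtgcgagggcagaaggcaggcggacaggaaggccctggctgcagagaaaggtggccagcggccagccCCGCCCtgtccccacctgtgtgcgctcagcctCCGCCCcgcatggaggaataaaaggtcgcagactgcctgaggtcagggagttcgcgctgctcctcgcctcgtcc
Krt20: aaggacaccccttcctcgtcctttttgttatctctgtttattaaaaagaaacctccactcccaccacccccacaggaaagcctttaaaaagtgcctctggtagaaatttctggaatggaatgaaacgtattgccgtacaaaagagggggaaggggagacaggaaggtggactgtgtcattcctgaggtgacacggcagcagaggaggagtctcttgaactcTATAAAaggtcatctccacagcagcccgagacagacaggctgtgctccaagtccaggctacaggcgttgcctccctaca
The Krt8 window held overlapping TATA box matches on the opposite strands, the Krt20 window 1 TATA box match, the Krt7 window 4 GC box matches and the Krt18 window none of these letters. The first bases of the Krt8 matches lay at -3 and -1 from the start, so both run across it, and that of the Krt20 match at -29. Among 32851 promoters of the same length, 13.6% held the TATA box letters, 35.7% the GC box letters and 7.81% the AP-1 letters. The windows are described for their letters alone, and no binding was measured.

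Krt19, a type I keratin of simple epithelia, had the same 9 tumours in its upper mode as Krt18. It ranged from 5.33 in P237 through a median of 6.04 to 10.14 in P219. The upper mode ran from 7.89 in P803 to 10.14 and the lower mode ended at 6.77 in P268. The order inside the upper mode was unlike that of Krt8: P219, lowest of the 8 for Krt8, was highest for Krt19, and P425 followed with 9.60. P803 and P569, with 11.71 and 11.68 for Krt8, had the lowest Krt19 of the 8, at 7.89 and 7.95.

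Krt7, a type II keratin of simple epithelia, was high in 6 tumours. The levels were 9.32 in P1276, 9.30 in P803, 9.29 in P1469, 9.20 in P569, 9.0 in P966 and 8.63 in P471. The other 21 tumours lay between 5.74 in P233 and 7.35 in P425, and the median over all 27 was 6.36. P425 at 7.35 and P219 at 6.62 had low Krt7 with high Krt8, the only tumours of the 8 that did. Hoxb13, a prostate homeobox gene looked at after its values were seen, was in its lower mode in the same 6 tumours that had high Krt7. Hoxb13 lay between 4.47 and 6.83 in those 6 and between 7.22 and 9.39 in the other 21, without overlap. Modes of this kind, in whichever tumours, were found in 7.90% of all genes, so that share is not a background for this match. The share of all genes that separate these same 6 tumours is not given, and no test was made.

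Krt20, a type I keratin best known from urothelium and gut, was high in 6 tumours, of which 5 also had high Krt7. The levels were 10.16 in P569, 10.11 in P1469, 9.18 in P217, 8.37 in P803, 7.69 in P1276 and 7.65 in P471. The other 21 lay between 4.44 in P237 and 6.39 in P966. P966 was the tumour with high Krt7 but without high Krt20. P217 had high Krt20 and no other keratin in an upper mode, with Krt8 in the lower mode. Upk1a, a uroplakin of the urothelium named with its values known, is 1 of 9 urothelial genes measured. It lay between 5.28 in P217 and 6.39 in P1469 in the 6 tumours with high Krt20. In P219 and P425 it was 11.23 and 10.84, where Krt20 was 4.85 and 5.20. Grhl3, on the same list, went another way, with P966, P471 and P1276 in its upper mode. Of these, P471 and P1276 had high Krt20. A relation of Krt20 with urothelial genes was not tested here.

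Krt23, a type I keratin of glandular epithelia, was high in 5 tumours, with 9.99 in P966, 9.16 in P1276, 8.86 in P471, 7.38 in P219 and 7.28 in P425. The other 22 lay between 4.35 in P237 and 5.34 in P502, below the median of all rows, so the 49.7-fold span of Krt23 is a lower bound. Krt20 and Krt23 shared 2 tumours in their upper modes, P471 and P1276, which is 2 of 6 for Krt20 and 2 of 5 for Krt23. Among the 8 tumours with high Krt8, P803, P1469 and P569 had high Krt20 and Krt23 at 4.63, 4.51 and 4.39, and P219 and P425 had the opposite pattern. The genes Krt20 and Krt23 are neighbours on chromosome 11.

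Krt17, a type I basal and stress keratin, was high in 5 tumours, with 10.01 in P1276, 9.78 in P569, 9.10 in P966, 8.58 in P471 and 8.18 in P1469. The other 22 lay between 4.49 in P235 and 6.70 in P757. All 5 also had high Krt7, which makes 5 of 5 for Krt17 and 5 of 6 for Krt7. P803 was the tumour with high Krt7 but with Krt17 at 5.51. The upper mode of Krt17 shared 1 tumour with that of Krt14, P1276, and none with that of Krt15. Pkp1, a desmosome plaque gene chosen after its values were seen, had the same 5 tumours in its upper mode as Krt17, between 8.31 and 10.10, against 5.32 to 7.27 in the other 22. Of 11 desmosome linkers measured, 7 had 2 modes, against 7.90% of all genes. The others of the 7 had other upper modes: 8 tumours for Dsp and Pkp2, 7 for Evpl and Ppl, 9 for Dsg2 and 24 for Dst. The share of all genes with these same 5 tumours in an upper mode is not given.

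Krt14, the type I keratin of basal cells, spanned little. It ranged from 4.60 in P509 through a median of 5.18 to 6.51 in P1276, with an SD of 0.453, and 27.6% of all genes had a larger SD. Its upper mode held P1276 at 6.51, P219 at 6.43, P757 at 6.06 and P425 at 5.95, against 5.42 at most in the other 23. Those 23 lay below the median of all rows. Krt15, a type I keratin of basal layers, ranged from 3.41 in P1394 through a median of 3.90 to 6.95 in P219. Its upper mode held P219 at 6.95, P268 at 5.42 and P425 at 5.25, and the lower mode reached 4.86 in P235. Of these only P219 exceeded the median of all rows, so the modes of Krt15 lie largely in the range close to background. Krt14 and Krt15 shared P219 and P425 in their upper modes, 2 of 4 and 2 of 3 tumours.

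Basal genes other than keratins, from a list, were set beside these levels. Trp63, which encodes the basal factor p63, stayed between 5.08 and 6.01 in all 27 tumours, around the median of all rows, with 1 mode and an SD of 0.196. Of the 15 basal genes measured, 6 had 2 modes, against 7.90% of all genes. Perp, a desmosome-associated p63 target, was high in the same 8 tumours as Krt8, between 7.38 and 9.40, against 3.60 to 5.66 in the other 19. Itgb4, the integrin subunit of hemidesmosomes, was high in the same 5 tumours as Krt23, between 7.99 and 9.93, against 5.76 to 6.92 in the other 22. Lama3 and Lamb3, laminin-332 subunits, were high in P966, P471 and P1276 alone. Trim29 was high in P966, P1276 and P1469, between 7.54 and 7.64, against at most 6.59 in the other 24. Dst, a cytolinker, went the other way. It was low in P966, P471 and P1276, between 6.60 and 6.85, against at least 8.14 in the other 24. These 6 genes with 2 modes are named with their values known. How many of all genes match the upper mode of Krt8 or Krt23 is not given.

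Of 44 other keratin genes measured, 2 had 2 modes, a count near the 7.90% of all genes, 1 had an SD over 1 and 19 never exceeded the median of all rows. Their median SD was 0.223. Krt4, a type II keratin of stratified mucosa, was high in P425 at 10.67, P219 at 10.56 and P1276 at 9.23, against 5.01 to 7.95 in the other 24. Krt80, a type II keratin and neighbour of Krt7 on chromosome 15, was high in P569 at 8.61, P803 at 7.16, P1276 at 7.06, P425 at 7.04 and P1469 at 6.81, against 6.37 at most elsewhere. Krt10, a type I keratin of suprabasal epidermis, reached 8.18 in P569 and 8.04 in P803 and did not meet the rule for 2 modes.

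An epithelial score was built from 19 genes without any keratin, as the mean deviation from each gene's mean. The score fell into separate clusters of 8 tumours, between 1.83 and 2.67, and 19 tumours, between -1.47 and 0.451. The 8 were P1276, P1469, P219, P425, P471, P569, P803 and P966, the same tumours as the upper mode of Krt8. Relations with this score were fitted inside each cluster, since a pooled slope would only restate the gap. Each fit was made with limma on all genes, and slopes are log2 per SD of the score.

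**Figure D3:**
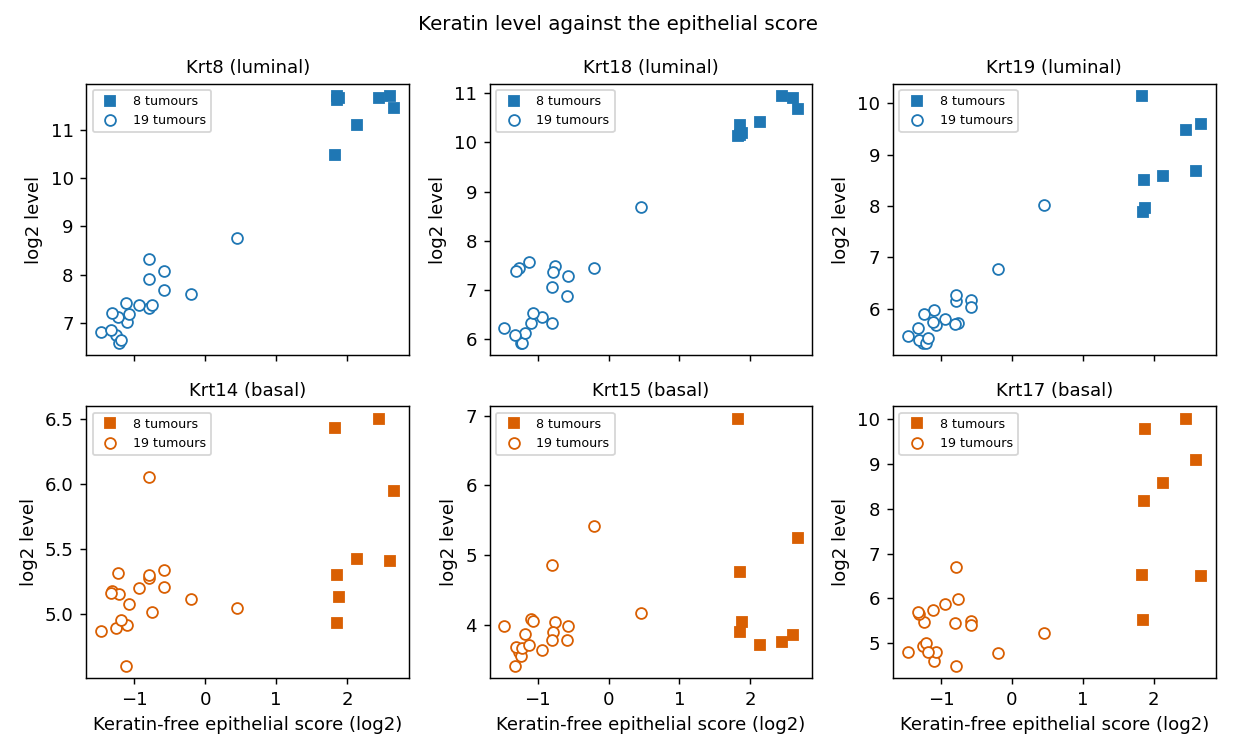
Log2 level of Krt8, Krt18, Krt19, Krt14, Krt15 and Krt17 (y axes) against the epithelial score without keratins (x axis), 1 point per tumour. Among the 19 tumours with a low score, Krt8, Krt18 and Krt19 were higher at a higher score, with P502 at the upper end, while Krt14 and Krt17 showed no slope past the threshold.

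In the 19 tumours with a low epithelial score, 3 of the 9 keratins rose with the score by limma, against 1.18% of all genes in either direction and 1.08% upward. Krt19 rose by 0.58 ± 0.06 log2 per SD (SE, adjusted p = 3e-05), Krt8 by 0.48 ± 0.08 (adjusted p = 0.0019) and Krt18 by 0.51 ± 0.12 (adjusted p = 0.0319). The other 6 did not pass, with Krt23 at 0.17 ± 0.05 (adjusted p = 0.101) and Krt15 at 0.25 ± 0.09 (adjusted p = 0.233). No basal keratin passed. The median slope was 0.33 for the 6 luminal keratins and 0.053 for the 3 basal ones, against 0.00038 for all genes. Leaving out P502, the tumour that joins the upper mode of Krt18 and Krt19, left Krt19 alone of the 9 past the threshold and 10 genes in all, with Krt8 at an adjusted p of 0.113 and Krt18 at 0.484. Without P502 and P268, the tumours farthest on the score, no keratin passed and Krt19 had 0.22 (adjusted p = 0.426), and with ranks of the score none passed and Krt19 had an adjusted p of 0.075. Krt18 also lost its call when P902, P1218, P474, P268 or P1394 was left out, at adjusted p values from 0.0505 to 0.0703, and with the mean of its rows (0.0862) or the animal number as a covariate (0.0701). In the same fit 1 of 44 other keratins rose (Krt4), as did 2 of 11 desmosome linkers (Dsp and Pkp2), 1 of 15 basal genes (Itgb4), 1 of 10 luminal genes (Tmprss2), 5 of 14 androgen-responsive and secretory genes and 2 of 9 urothelial genes. None of the 9 smooth muscle genes passed.

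Among the same 19 tumours, Krt8 and Krt19 were the only pair of 36 that passed limma in both directions. Krt8 rose by 0.47 ± 0.08 per SD of Krt19 (adjusted p = 0.00314) and Krt19 by 0.50 ± 0.09 per SD of Krt8 (adjusted p = 0.0359). Krt23 rose by 0.20 ± 0.04 per SD of Krt19 (adjusted p = 0.0212), but the reverse did not pass, and the call was lost without P502 (adjusted p = 0.561) or P268 (0.0783). Krt8 and Krt18, the filament partners, did not pass limma in either direction after adjustment, though both slopes were above 0. Krt18 rose by 0.50 ± 0.12 per SD of Krt8 (unadjusted p = 0.00057, adjusted p = 0.195). Krt8 rose by 0.40 ± 0.10 per SD of Krt18 (unadjusted p = 0.00065, adjusted p = 0.332). The adjustment depends on how many other genes follow each keratin, so a missing call does not show that the partners vary apart. Without P502, Krt8 on Krt19 had an adjusted p of 0.143. The pair of Krt8 and Krt19 was also lost with quantile normalization, with the animal number as a covariate, and when P619, P609, P912, P237, P1218, P474, P1394 or P503 was left out. Of the 72 ordered relations 3 passed and 28 had an unadjusted p under 0.05. The fits on single keratins called few of all genes: 0.00902% on Krt18, 0.0406% on Krt8, 0.00451% on Krt23 and 1.04% on Krt19.

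Krt19 also followed the wider epithelial programme in these 19 tumours. In its limma fit 231 genes passed, 1.04% of those tested, and 12 of the 19 epithelial genes were among those that rose with it, against 1.01% of all genes upward. Esrp1, an epithelial splicing factor, rose by 0.54 ± 0.03 per SD of Krt19 (adjusted p = 1.4e-08), Cdh1, E-cadherin, by 0.83 ± 0.06 (adjusted p = 1.74e-07) and Ehf, an epithelial transcription factor, by 0.77 ± 0.06 (adjusted p = 1.74e-07). The secretory genes Msmb, Pigr, Azgp1 and Pbsn also rose with Krt19. Without P502, 19 genes passed, 4 of them epithelial. Krt8 had 9 genes in its own fit, 0.0406% of those tested, among them Cdh1, Cldn4, Cldn7, Esrp1, Dsp and Tmprss2.

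The fit on Krt15 in the 19 tumours called other genes. Krt15 ran there from 3.41 to 5.42, the latter in P268, with a median of 3.87. All of these levels lie below the median of all rows, close to background, which limits what its slopes can show. In its limma fit 332 genes passed, 1.50% of those tested, with 1.31% upward. The calls in the lists were few: 2 of 9 smooth muscle, 2 of 9 urothelial, 2 of 14 androgen-responsive and secretory, 1 of 10 macrophage (Fcgr1) and 1 of 6 seminal vesicle genes (Svs2) rose. The smooth muscle genes Des (0.80 ± 0.14 per SD of Krt15, adjusted p = 0.0025) and Myh11 (0.36 ± 0.09, adjusted p = 0.0422) rose with it. So did the uroplakins Upk1a (0.79 ± 0.11, adjusted p = 0.000431) and Upk1b (0.67 ± 0.16, adjusted p = 0.0407), and the prostate secretory genes Msmb (1.64 ± 0.26, adjusted p = 0.00129) and Pbsn (0.29 ± 0.07, adjusted p = 0.0407). Leaving out single tumours gave between 142 genes, without P235, and 371. Krt20 had 33 genes in its fit, 0.149%, and none without P217 (2262 at an unadjusted p under 0.05), with 13 to 54 when any other tumour was left out. Krt7, Krt14 and Krt17 had no gene past the limma threshold among these 19 tumours, with 3285, 1721 and 3056 genes at an unadjusted p under 0.05.

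Within the 8 tumours with a high epithelial score, no keratin rose or fell with the score in limma, and no gene of 22161 passed (0% called, 2690 genes at an unadjusted p under 0.05, 2 of them keratins). No pair of keratins passed among 72 ordered relations, of which 27 had an unadjusted p under 0.05. Of all genes, the fits on Krt18, Krt19, Krt20, Krt14 and Krt17 called 0%, that on Krt8 0.0225% and that on Krt15 0.122%. The lowest adjusted p was that of Krt15 on Krt7, -0.98 ± 0.19 log2 per SD of Krt7 (adjusted p = 0.0632). Krt20 on Krt7 had 1.63 ± 0.40 (adjusted p = 0.148).

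Krt7 and Krt23 did have genes that moved with them within the 8 tumours, but both keratins were themselves split there. Krt7 was 6.62 in P219 and 7.35 in P425, against 8.63 to 9.32 in the other 6. Krt23 was 4.39 to 4.63 in P803, P1469 and P569, against 7.28 to 9.99 in the other 5. A slope on either keratin therefore cannot be told apart from a contrast of these groups. P219 and P425 were left out of the Krt7 fit singly and not together. In the limma fit on Krt7, 170 genes passed, 0.766% of those tested, and 155 of them, 0.699%, fell as Krt7 rose. Of 9 smooth muscle genes 5 fell: Acta2, Cnn1, Des, Myh11 and Synpo2. Of 9 urothelial genes 3 fell, Gata3, Upk1a and Upk1b, and of 14 androgen-responsive and secretory genes 3, Mme, Msmb and Pigr. Msmb, a secreted prostate protein, fell by 3.08 ± 0.33 log2 per SD of Krt7 (adjusted p = 0.00857) and Synpo2 by 0.81 ± 0.09 (adjusted p = 0.00942). P219 and P425, the 2 of the 8 with low Krt7, had Msmb at 11.62 and 11.33, against 4.24 to 4.85 in the other 6, and the smooth muscle scores 2.35 and 2.11. Leaving out each tumour in turn gave 84 to 167 genes and 1 to 5 smooth muscle genes, with 1 left without P219. The 170 genes became 90 without P966, 97 without P803, 84 without P1469 and 107 without P569.

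In the fit on Krt23 within the 8 tumours, 990 genes passed, 4.46% of those tested, with 2.23% in each direction. Of 15 neuroendocrine genes 8 fell as Krt23 rose. Pcsk1, a prohormone convertase, fell by 2.75 ± 0.36 log2 per SD of Krt23 (adjusted p = 0.00824), Celf3 by 1.68 ± 0.21 (adjusted p = 0.00739) and Chga, chromogranin A, by 1.99 ± 0.30 (adjusted p = 0.0106). Chga was 5.91 to 8.70 in the 5 tumours with high Krt23 and 10.89 to 11.55 in P803, P1469 and P569. Of 15 basal genes 3 rose, Itgb4, Lama3 and Lamb3, and Dst, a cytolinker, fell by 0.91 ± 0.19 (adjusted p = 0.0315). None of 11 desmosome linkers rose and Dst, which is also on that list, fell, while 1 of 19 epithelial genes rose, Cldn4. Itgb4 rose by 1.60 ± 0.16 (adjusted p = 0.00325), Lamb3 by 1.51 ± 0.23 (adjusted p = 0.0107) and Cldn4, a claudin, by 2.28 ± 0.30 (adjusted p = 0.00824). Of 17 squamous genes 2 rose, Dsc3 and Tgm3. Tgm3, a transglutaminase of cornifying epithelium, rose by 2.78 ± 0.48 (adjusted p = 0.0170), with 11.81 to 12.37 in P1276, P966 and P471. Leaving out each tumour gave 280 genes (without P803) to 1266 (without P425), and 3 to 11 neuroendocrine genes. The 990 also became 460 without P966, 442 without P471, 510 without P1276, 444 without P1469 and 370 without P569. Of 10 fibroblast genes 2 rose, Pdgfra by 1.39 ± 0.25 (adjusted p = 0.0194) and Postn by 1.07 ± 0.22 (adjusted p = 0.0300), and Vim, the mesenchymal intermediate filament, rose by 0.48 ± 0.09 (adjusted p = 0.0237). None of 10 macrophage and none of 9 smooth muscle genes passed. The squamous scores of P1276, P966 and P471 were 1.22, 0.914 and 0.849. The part of other cell types in these values was not tested.

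**Figure D4:**
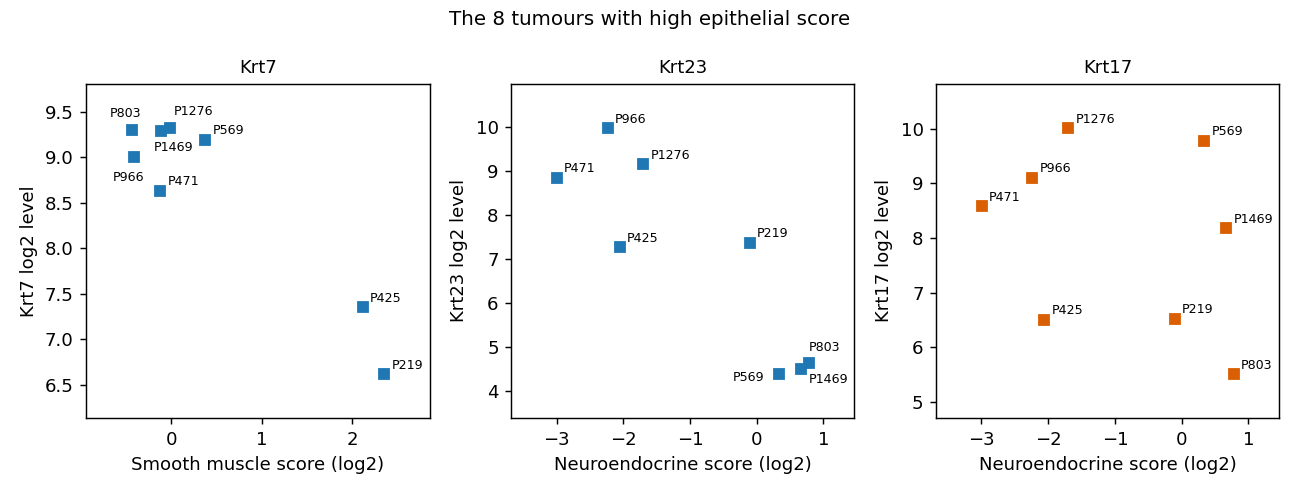
Log2 level of Krt7, Krt23 and Krt17 (y axes) in the 8 tumours with a high epithelial score, against the smooth muscle score (Krt7) or the neuroendocrine score (Krt23, Krt17), 1 labelled point per tumour. Krt7 is low in P425 and P219, which have the highest smooth muscle scores, and Krt23 is low in P803, P1469 and P569, which have the highest neuroendocrine scores, while Krt17 is high in tumours at either end of the neuroendocrine score.

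Along a mitosis score over all 27 tumours, 4 of the 9 keratins fell by limma and none rose, against 24.6% of all genes in either direction and 12.8% downward. Krt8 fell by 1.15 ± 0.30 log2 per SD of the score (SE, adjusted p = 0.0064), Krt19 by 0.93 ± 0.23 (adjusted p = 0.0035), Krt18 by 0.97 ± 0.29 (adjusted p = 0.0135) and Krt14 by 0.24 ± 0.07 (adjusted p = 0.0208). The median slope was -0.78 over the 6 luminal and -0.29 over the 3 basal keratins, against -0.022 over all genes. The 5 that did not pass had slopes below 0 too, with Krt23 at -0.63 ± 0.28 (adjusted p = 0.105) and Krt20 at -0.31 ± 0.33 (adjusted p = 0.526). P425 stood apart at the low end of the score, at -1.80. Without P425 and P219, Krt7, Krt8, Krt18, Krt19, Krt20 and Krt17 passed and Krt14 did not (adjusted p = 0.084). With P425 and P803 left out, which lay farthest from the median score, Krt18 lost its call (-0.86, adjusted p = 0.0601) and Krt7 and Krt17 passed. Within the 19 tumours with a low epithelial score no keratin passed limma (418 genes did, and 0 keratins had an unadjusted p under 0.05). There the slopes of Krt18 and Krt19 were 0.22 and 0.049, above 0. Of the 19 epithelial genes without keratins, 17 fell along the same score.

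Along the score of androgen-responsive and secretory genes, 3 keratins rose by limma, against 13.6% of all genes in either direction and 7.45% upward. Krt15 rose by 0.54 ± 0.10 (adjusted p = 0.00041), Krt19 by 0.98 ± 0.22 (adjusted p = 0.0028) and Krt14 by 0.24 ± 0.07 (adjusted p = 0.0326). P425 and P219 had the highest scores, 3.39 and 2.03, and without them no keratin passed limma (2 at an unadjusted p under 0.05) and 71 genes did. Within the 19 tumours with a low epithelial score, which also lack P425 and P219, 1 keratin passed limma and 5 had an unadjusted p under 0.05. With ranks of the score Krt14 lost its call (adjusted p = 0.116). All 9 smooth muscle genes rose along this score. The same 3 keratins rose along the smooth muscle score by limma, against 8.20% of all genes in either direction and 5.06% upward. Krt15 rose by 0.61 ± 0.08 (adjusted p = 2.2e-05), Krt14 by 0.30 ± 0.07 (adjusted p = 0.0045) and Krt19 by 0.91 ± 0.23 (adjusted p = 0.0137). Without P425 and P219 no keratin passed limma (2 at an unadjusted p under 0.05) and 2 genes did, and with ranks of the score none of the 3 passed (adjusted p = 0.120 to 0.180). Within the 19 tumours with a low epithelial score no keratin passed limma on the smooth muscle score, and 4 had an unadjusted p under 0.05. The smooth muscle score was 2.11 in P425 and 2.35 in P219, and at most 0.803 in the other 25. The urothelial score was 1.76 in P425 and 1.48 in P219, and at most 0.429 elsewhere. The part of these cell types in the slopes was not tested.

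**Figure D5:**
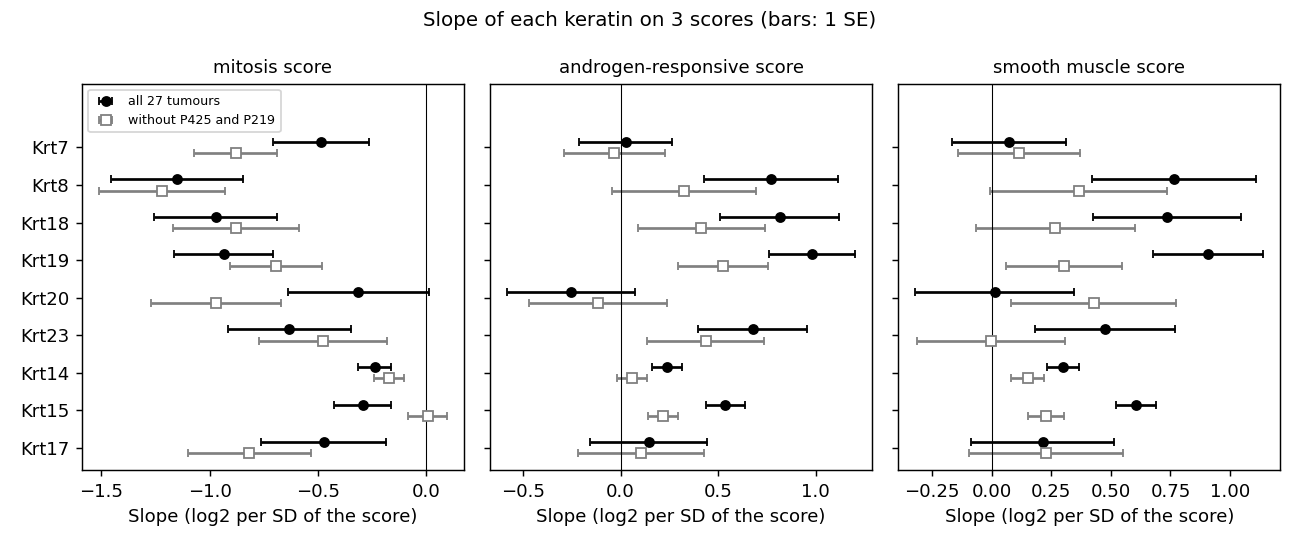
Slope of each keratin on the mitosis, androgen-responsive and smooth muscle scores, in log2 per SD of the score, with bars of 1 SE. Filled points are the fits over all 27 tumours and open squares the fits without P425 and P219; the slopes of Krt15 on the androgen-responsive and smooth muscle scores are 0.54 and 0.61 over 27 tumours and 0.22 and 0.23 without these 2.

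Along the neuroendocrine score, fitted in the 23 tumours of its larger cluster, no keratin passed limma (0.00451% of all genes did, and 2 keratins had an unadjusted p under 0.05). Outside that cluster were P471, P966, P425 and P1276, with scores of -3.00, -2.24, -2.06 and -1.70. All of these had Krt8 and Krt23 in their upper modes, so the fit does not cover the tumours with the lowest neuroendocrine scores. Krt23 had -0.34 ± 0.11 log2 per SD (adjusted p = 0.263) and Krt15 -0.33 ± 0.14 (adjusted p = 0.404).

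The median slopes of luminal and basal keratins given above are descriptions, and no test of their difference is given. Krt14 lay below the median of all rows in 23 of the 27 tumours and Krt15 in all but P219, where a small slope carries little information. Krt17 ranged more widely, from 4.49 to 10.01 with a median of 5.51.

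The genes most alike in pattern over 27 tumours were named by Pearson's r, given as a description. The 27 tumours hold the gap between 8 and 19 tumours, which raises r for every gene that shares the gap, though the upper modes of Krt14 and Krt17 hold other sets of tumours. Krt8 was most like Dsp (r = 0.988), a desmosomal linker of keratin filaments, then Cldn7 (0.987), Esrp1 (0.985), Ap1m2 (0.985) and St14 (0.983). Krt18 was most like St14 (0.972), Rab25 (0.969), Dsp (0.969), Marveld2 (0.968) and Spint1 (0.964). Krt17 was most like Irx3 (0.911), Ahsg (0.906), Cldn6 (0.905), Ovol1 (0.894) and Farp1 (0.879), and Krt14 most like Mal (0.831), Lncbate1 (0.826), Itgb6 (0.808), Ctse (0.802) and Plekhh1 (0.780). Within the 19 tumours with a low epithelial score, Krt8 was most like Ano9 (0.848), Arhgef38 (0.846), Cldn7 (0.833), Cldn4 (0.828) and Pllp (0.818). Krt18 was most like Lpcat2 (0.840), Dmbt1 (0.836), Rassf3 (0.801), Krt23 (0.784) and Ccs (0.776). Krt17 was most like Nutm2 (0.843), Mir183 (0.827), P3h4 (0.819), Gpr107 (0.809) and Akt1 (0.789), and Krt14 most like Rfpl4 (0.863), Mgat4e (0.817), Grxcr2 (0.816), Ltf (0.809) and Bsph2 (0.790).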

How the data were processed

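Prostate tumours of 27 mice, in 1 group, were measured on 1 array each. The deposited table holds log2 expression levels made by the authors, 41345 rows by 27 arrays. The tool was Partek, per the submitters' processing notes; no version, background correction, summarisation, normalization or genome build is given in the sources used here. No value column was left unused. Rows with 1 gene symbol (23521) were used, keeping the row with the highest mean per gene, which gave 22180 genes. Only Krt18 among the 9 keratins had a second row. Arrays give no depth, so precision rests on how many there were. Nothing in the labels says that tumours were arrayed in batches.

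A list's score was the mean over its genes of the log2 level minus the gene's mean. Modes and clusters were called with mclust 6.1.1 (equal variance, BIC gain over 6, Ashman's D over 2, at least 3 tumours). Slopes were fitted with limma 3.58.1 (lmFit, eBayes with trend) in R 4.3.3 on scores scaled to SD 1, adjusted by Benjamini-Hochberg over all genes at 0.05, in clusters of at least 6 tumours where a score had them. A list's own genes were left out of its fit. The fits were tested on simulated data. The alternatives were quantile normalization, arrays centred on the median, another rule for rows, a filter on low values, no trend, ranks, leaving out tumours, animal number as a covariate and the larger epithelial cluster alone. The 9 keratins, the gene lists and the tests were chosen with earlier results of these data known. The text names the 9 keratins, up to 4 other keratins with the largest SD, up to 3 genes per list with the largest slope or SD, and the 5 genes most like Krt8, Krt18, Krt14 and Krt17. Other genes are named with their values known. RefSeq promoter windows came from a table of build GRCm38.p6.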

Additional observations from a re-analysis of the deposited data

How the results depend on the processing

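Counts of keratins past the threshold were recomputed under each alternative. The mitosis count was 4, and 0 in the larger epithelial cluster alone, where Krt18 had a slope of 0.22 and Krt19 of 0.049 in place of slopes below 0. The androgen-responsive count was 3. It was 0 without the 2 tumours farthest on the score, which are P425 and P219, 1 in the larger epithelial cluster, where Krt14 had -0.0057, and 5 with the animal number as a covariate. The smooth muscle count was 3, and 0 with ranks of the score, without the 2 farthest tumours, again P425 and P219, and in the larger epithelial cluster. The epithelial count in 19 tumours was 3, and 0 with ranks or without the 2 farthest tumours. The 1 pair of keratins called in 19 tumours became 0 with quantile normalization and 0 with the animal number as a covariate, and 0 to 2 when single tumours were left out. The other 64 counts stayed within 1.5 times the main count, and the cause of the changes was not tested. Leaving out P425 and P219, and leaving out single tumours in the fits on keratins, were chosen after seeing the data.

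Leaving out each tumour in turn gave 4 to 5 keratins for mitosis, 2 to 5 for the androgen-responsive score, 1 to 3 for smooth muscle, 1 to 4 for the epithelial score in 19 tumours, and 0 in the neuroendocrine fit and in the epithelial fit in 8 tumours. The number of all genes called ranged from 2780 (without P425) to 6033 (without P471) for mitosis, from 717 (without P425) to 3435 for the androgen-responsive score, from 416 (without P425) to 2480 for smooth muscle, from 10 (without P502) to 361 for the epithelial score in 19 tumours and from 0 to 147 (without P471) in 8 tumours. Krt7 passed on mitosis without P425 (adjusted p = 0.0102), and Krt14 lost its androgen-responsive call without P425 (0.144) or P219 (0.195). Krt19 lost its smooth muscle call without P425 (0.159) or P219 (0.114). No paired analysis was possible because all tumours form 1 group. Levels below the median of all rows are close to background, which makes the folds of the 9 keratins other than Krt8 and Krt18 lower bounds.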

Other observations

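Among keratins outside the rule for likeness, the genes closest to Krt15 over the 27 tumours by Pearson's r were the striated muscle genes Nrap (r = 0.957, rho = 0.725), Myl1 (r = 0.934, rho = 0.678) and Acta1 (r = 0.929, rho = 0.368), and rho was lower than r for each. Ttn was the closest within the 19 tumours with a low epithelial score (r = 0.929, rho = 0.633). Krt15 itself was above the median of all rows in P219 alone. Krt23 was closest to Rnf43 (r = 0.980, rho = 0.758) and Prodh (r = 0.964, rho = 0.573), and Krt7 to Tmprss4 (r = 0.960, rho = 0.618). Krt19 was closest to Esrp1 within the 19 tumours (r = 0.975, rho = 0.912). These are descriptions, with no test.

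P217 had Krt20 at 9.18 with no other keratin of the 9 in an upper mode, Dsp at 5.12 and Upk1b at 6.27. P502 had Krt18 and Krt19 in their upper modes, at 8.68 and 8.03, with Dsp at 7.11, the highest of the 19 tumours outside the upper mode of Dsp. P502 also had Msmb at 10.28 and Upk1b at 9.04.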
